A study of Mus musculus with 14 samples.

Results

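The genes described here are 8 mouse genes of lymphocyte growth cytokines and their receptors, measured in transplanted hearts: the receptor chains Il2ra, Il2rb, Il2rg, Il4ra, Il7r and Il10ra and the cytokines Il10 and Il15. They were chosen by name, and their probe sets were found through the annotation of the MG-U74Av2 array by current or older symbol. The table holds 12488 probe sets, and those annotated to a single gene name 8252 genes. Of these probe sets 9 belong to 7 of the 8 genes, and the annotation used here pairs no probe set with Il2rg alone. The study measured 14 samples of transplanted heart, 1 array per sample. Rejecting allografts at day 7 (n = 3) were Balb/c hearts in C57/BL6 recipients, with no treatment named in the labels. Tolerizing allografts at day 7 (n = 3) and day 70 (n = 3) were hearts of the same donor strain and recipient strain, with a monoclonal antibody treatment against CD80 and CD86. These are the ligands through which antigen-presenting cells costimulate T cells. Isografts at day 7 (n = 3) and day 70 (n = 2) were C57/BL6 hearts in C57/BL6 recipients, so every recipient was C57/BL6 and donor strain differed between allografts and isografts. Donor strain and alloimmune response cannot be told apart in those comparisons. The labels give no age, sex, dose or schedule.

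Interleukins 2, 4, 7 and 15 signal through receptors that share the common gamma chain encoded by Il2rg, and through the kinases JAK1 and JAK3 to STAT transcription factors. Il2ra encodes the alpha chain that gives the interleukin 2 receptor its high affinity and appears on activated T cells and regulatory T cells. Il2rb encodes the beta chain used by interleukins 2 and 15, Il7r the alpha chain on naive and memory T cells, and Il4ra the chain that binds interleukins 4 and 13 on lymphocytes, macrophages and many other cells. Interleukin 10 restrains macrophages and T cells through Il10ra, which pairs with the widely expressed Il10rb. Interleukin 15 is known to be made by leukocytes and by tissue cells.

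The values are signal intensities on a linear scale, and every array had a trimmed mean of 100.06 to 100.07. Signals under 11, the 25th percentile of the whole table, were set to 11 before log2 was taken, and 11 is called the floor below. Of the 9 member probe sets, 7 entered the test. The probe set of Il2ra exceeded the floor on 2 arrays only, and the second one of Il10 is a control feature of the array. Myh6, the main myosin heavy chain of mouse heart muscle, was above the floor on all arrays, with 76.3 as its lowest signal. The 14 accession numbers are consecutive without a gap, and in their order the sequence of the 5 groups starts over once. The arrays were split there into 2 runs, of 5 and 9 arrays, and each run holds all 5 groups. The labels name no batch, so the runs are a division made here. Beta-actin probe sets at the 3′ and 5′ end, which track RNA quality, had a signal ratio of 1.26 to 1.60 in rejecting allografts, 1.09 to 1.37 in tolerizing allografts at day 7 and 1.52 to 1.98 in isografts at day 7. At day 70 it was 1.24 to 1.69 in tolerizing allografts and 1.75 to 1.76 in isografts.

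Rejecting allografts had more Il7r and Il10ra signal than isografts at day 7, and more Il4ra signal by 1 of its 2 probe sets, and these were the only member calls in that comparison. Il7r was 3.83-fold, Il10ra 4.75-fold and Il4ra 2.50-fold higher by its brighter probe set, while the dimmer one was not called. Of the 7 member probe sets tested, limma called 3 higher and 0 lower, and 4 had an unadjusted p under 0.05, the additional one being Il15, which was lower. Over all 10395 probe sets tested, 17.7% were called in either direction, 8.54% as higher and 9.18% as lower, and 29.2% had an unadjusted p under 0.05.

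Promoters of Il7r and Il4ra are shown because these receptor genes were both higher in rejecting allografts. The table of RefSeq promoters (GRCm38.p6) matched 4 of the 8 genes, Il2ra, Il2rg, Il4ra and Il7r. Each line gives the 250 bases before the annotated start, 5′ to 3′ on the strand of the gene. The window of Il7r is chr15:9529877-9530126 on the minus strand, and that of Il4ra is chr7:125552021-125552270 on the plus strand. Capitals mark matches to any of the 4 motifs searched on both strands: TTCNNNGAA (STAT-type palindrome), GGAAGT (Ets-type), TGACTCA (AP-1-type) and ATGCAAAT (octamer).
Il7r: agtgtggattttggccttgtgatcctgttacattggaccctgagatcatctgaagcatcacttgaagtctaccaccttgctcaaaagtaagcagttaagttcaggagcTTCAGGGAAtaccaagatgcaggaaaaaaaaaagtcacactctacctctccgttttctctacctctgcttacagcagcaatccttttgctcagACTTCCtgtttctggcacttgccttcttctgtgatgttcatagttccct
Il4ra: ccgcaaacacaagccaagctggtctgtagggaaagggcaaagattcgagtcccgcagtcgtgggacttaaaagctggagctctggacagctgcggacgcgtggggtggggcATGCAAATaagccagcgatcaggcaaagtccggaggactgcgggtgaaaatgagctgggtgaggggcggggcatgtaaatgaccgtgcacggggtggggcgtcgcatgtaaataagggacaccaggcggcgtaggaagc
The Il7r window holds TTCNNNGAA as TTCAGGGAA, 142 to 134 bases before the start, and GGAAGT on the opposite strand as ACTTCC, 49 to 44 bases before it. The Il4ra window holds the octamer ATGCAAAT, 139 to 132 bases before the start. No matches overlapped. Among all 32851 promoter windows of this length, 7.02% hold TTCNNNGAA, 19.7% GGAAGT, 4.46% TGACTCA and 1.6% ATGCAAAT. A match describes the letters and does not show that a factor binds there.

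**Figure D1:**
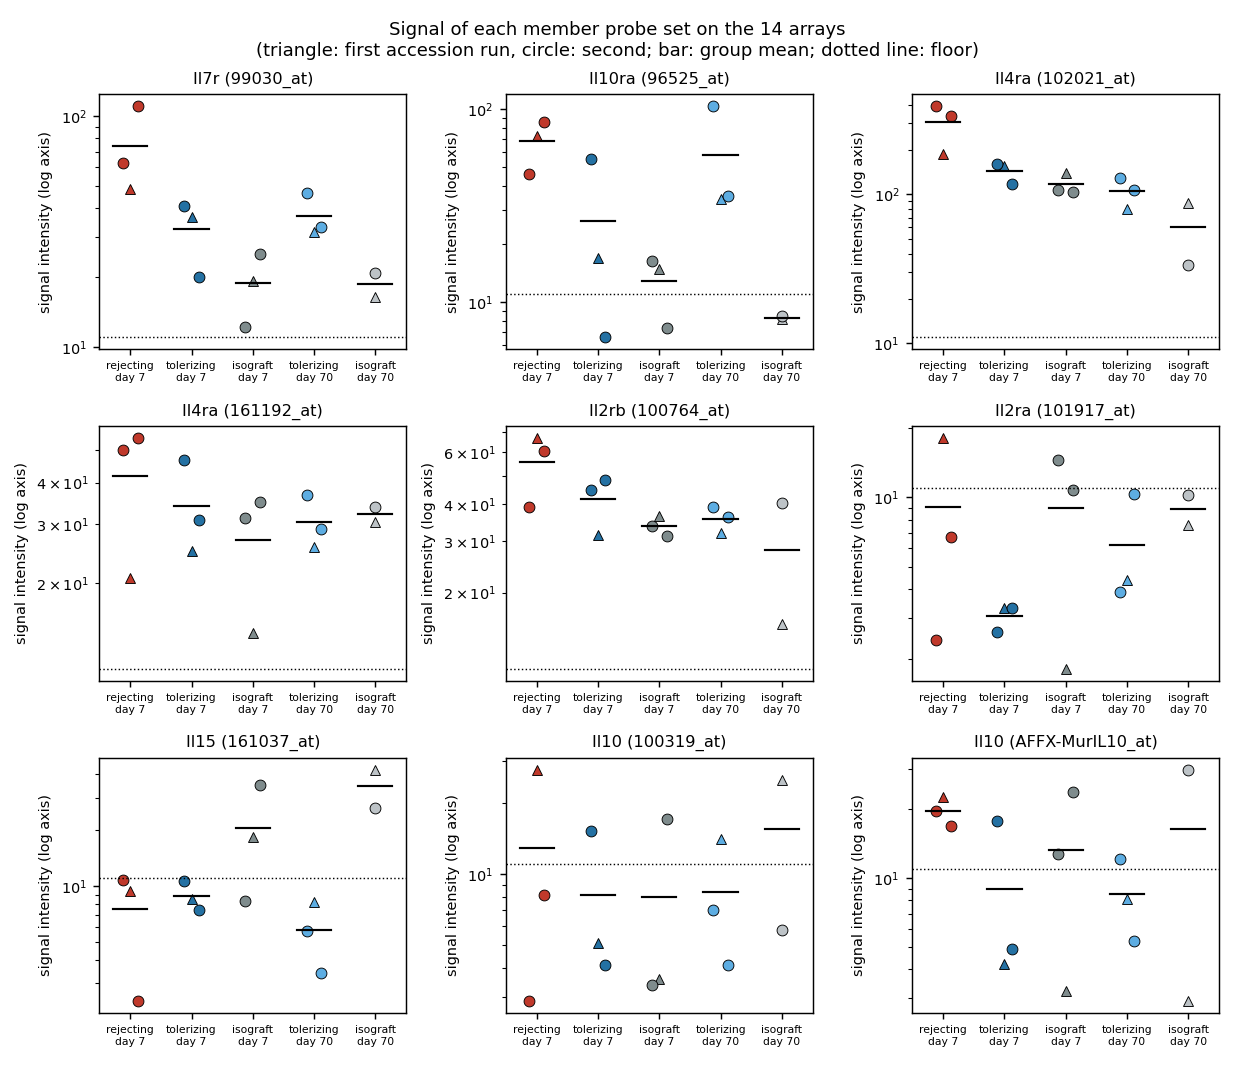
Signal intensity (log axis) of the 9 member probe sets on each of the 14 arrays, by group; triangles are arrays of the first accession run, circles of the second, bars are group means and the dotted line is the floor of 11. Il7r, Il10ra, the brighter Il4ra probe set (102021_at) and Il2rb, which was not called, lie higher in all 3 rejecting allografts than in all 3 isografts at day 7. The share of all probe sets without such overlap was not computed. Lack of overlap, here and in the text, therefore only describes these arrays and is not a result about the members. Il15 lies under the floor in all 9 allografts.

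The alpha chain of the interleukin 7 receptor showed the smallest p among the members. Il7r (probe set 99030_at) gave 62.6, 110.8 and 48.4 in rejecting allografts, against 12.2, 25.3 and 19.3 in isografts at day 7. The groups did not overlap, and the lowest rejecting heart was above the highest isograft. The log2 difference was 1.94 (SE 0.39, 95% interval 1.10 to 2.78, limma adjusted p = 0.00414). The 2 arrays of the first run differed by 1.33 and the means of the second run by 2.25, with an adjusted p of 0.0333 for the second run alone.

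Tolerizing allografts lay between these groups for Il7r. They gave 40.8, 20.1 and 36.4 at day 7 and 46.6, 33.0 and 31.6 at day 70, against 20.9 and 16.5 in isografts at day 70. At day 7 the tolerizing range overlapped that of the isografts, with a log2 difference of 0.78 (SE 0.39, adjusted p = 0.445). At day 70 all 3 tolerizing hearts were above both isografts, but the difference of 0.97 (SE 0.44, adjusted p = 0.302) missed the threshold. All 3 rejecting hearts were above all 3 tolerizing hearts of day 7, with a difference of 1.16 (SE 0.39, 95% interval 0.32 to 2.00, adjusted p = 0.162). By group mean the order was rejecting at day 7 (73.9 ± 32.7), tolerizing at day 70 (37.1 ± 8.29), tolerizing at day 7 (32.4 ± 10.9), isograft at day 7 (18.9 ± 6.56) and isograft at day 70 (18.7 ± 3.11), as mean ± SD with n = 3 except n = 2 for the last. The tolerizing groups of the 2 days differed by less than their spread, as did the isografts.

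Il10ra, the ligand-binding chain of the interleukin 10 receptor, had the largest difference among the tested member probe sets. Probe set 96525_at gave 46.1, 85.3 and 72.7 in rejecting allografts, against 16.3, 7.4 and 14.9 in isografts at day 7. The groups did not overlap, and 1 of these isografts was under the floor. The log2 difference was 2.25 (SE 0.55, 95% interval 1.07 to 3.43, adjusted p = 0.0117). The first run gave 2.29, and the second gave 2.23 with an adjusted p of 0.123 from fewer arrays. Fitted with the beta-actin ratio, the difference was 2.06 (adjusted p = 0.0501).

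The tolerizing hearts were uneven for Il10ra. At day 7 they gave 55.4, 6.6 and 16.9, so that 1 of the 3 lay in the range of the rejecting hearts and 1 under the floor (difference from isografts 0.65, SE 0.55, adjusted p = 0.715). At day 70 they gave 103.8, 35.6 and 34.4, against 8.5 and 8.2 in isografts. Both isografts were under the floor, and the tolerizing hearts were higher by at least 4.57-fold, which missed the threshold (adjusted p = 0.0731, log2 difference 2.19, SE 0.61). The group means were 68.0 ± 20.0 in rejecting hearts, 57.9 ± 39.7 and 26.3 ± 25.7 in tolerizing hearts at days 70 and 7, and 12.9 ± 4.79 and 8.35 ± 0.21 in isografts at days 7 and 70 (SD, n = 3 except n = 2 for the last). The ranges of rejecting hearts and of tolerizing hearts at either day overlapped.

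Il4ra is represented by a brighter and a dimmer probe set, and they did not give the same result. The brighter one, 102021_at, gave 393.0, 334.1 and 186.3 in rejecting allografts, against 107.8, 103.9 and 140.1 in isografts at day 7. The groups did not overlap, and the lowest rejecting heart belongs to the first run. The log2 difference was 1.32 (SE 0.35, 95% interval 0.57 to 2.07, adjusted p = 0.0175). It was 0.41 between the 2 arrays of the first run and 1.78 in the second run (adjusted p = 0.00574 for the second run alone). The call was lost without isograft 1, isograft 2, rejecting array 1 or rejecting array 2, with adjusted p of 0.0605, 0.0638, 0.0781 and 0.0677 and differences of 1.27, 1.24, 1.10 and 1.22.

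The dimmer Il4ra probe set, 161192_at, gave 50.1, 54.6 and 20.7 in rejecting allografts, against 31.4, 35.0 and 14.1 in isografts at day 7. These ranges overlapped, and the log2 difference was 0.62 (SE 0.43, adjusted p = 0.379). Its lowest values in both groups came from the first run, where the difference was 0.55, against 0.66 in the second. It was above the floor on all 14 arrays and was called under no alternative. The other statements on Il4ra are about 102021_at alone and do not hold for both probe sets.

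With 102021_at, Il4ra in tolerizing allografts was 159.6, 118.1 and 154.5 at day 7 and 128.1, 107.0 and 80.2 at day 70, against 33.8 and 87.9 in isografts at day 70. Rejecting hearts were all above tolerizing hearts of day 7, with a difference of 1.02 (SE 0.35, 95% interval 0.28 to 1.77, adjusted p = 0.167). Tolerizing hearts and isografts overlapped at both days, with differences of 0.30 (SE 0.35, adjusted p = 0.828) at day 7 and 0.92 (SE 0.39, adjusted p = 0.269) at day 70. At day 70 the first run had a difference of -0.13 between 2 arrays and the second run one of 1.79, and without isograft 2 the difference was 1.61 (adjusted p = 0.0494). Both isografts of day 70 were below all 3 isografts of day 7 (difference -1.09, SE 0.39, adjusted p = 0.804). By group mean the order was rejecting at 304.5 ± 106.5, tolerizing at day 7 at 144.1 ± 22.6, isograft at day 7 at 117.3 ± 19.9, tolerizing at day 70 at 105.1 ± 24.0 (SD, n = 3 each) and isograft at day 70 at 60.9 ± 38.3 (SD, n = 2).

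Il2rb was above the floor in all hearts but was not called in any comparison. It gave 39.0, 60.7 and 67.2 in rejecting allografts, against 33.8, 31.2 and 36.3 in isografts at day 7. These groups did not overlap, and the difference was 0.69 (SE 0.35, 95% interval -0.07 to 1.44, adjusted p = 0.216). Tolerizing allografts gave 44.8, 48.4 and 31.3 at day 7 and 39.0, 36.1 and 32.0 at day 70, and isografts at day 70 gave 40.3 and 15.7. The tolerizing ranges overlapped those of the isografts at both days. The differences from isografts were 0.28 (SE 0.35, adjusted p = 0.848) at day 7 and 0.50 (SE 0.39, adjusted p = 0.597) at day 70.

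Il2ra, the activation-induced alpha chain, was near or under the floor throughout and could not be compared. Probe set 101917_at gave 2.4, 6.7 and 18.1 in rejecting allografts, 2.6, 3.3 and 3.3 in tolerizing allografts and 14.5, 10.7 and 1.8 in isografts at day 7. At day 70 it gave 3.9, 10.3 and 4.4 in tolerizing allografts and 10.2 and 7.6 in isografts. Only 1 rejecting heart and 1 isograft exceeded 11, so a difference in Il2ra was not detectable with this probe set.

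Among the cytokines, Il15 was seen above the floor in isografts only. Probe set 161037_at gave 10.8, 2.4 and 9.4 in rejecting allografts and 10.7, 7.4 and 8.5 in tolerizing allografts at day 7, against 8.3, 35.0 and 18.4 in isografts. At day 70 it gave 5.7, 3.4 and 8.2 in tolerizing allografts, against 26.4 and 42.5 in isografts. All 9 allografts were under the floor, and 4 of the 5 isografts were above it. Tolerizing allografts at day 70 were at least 3.05-fold lower than isografts (log2 difference -1.61, SE 0.36, 95% interval -2.39 to -0.82, adjusted p = 0.0284). This was the 1 call among the 7 member probe sets at day 70, where 3.2% of all probe sets were called, 2.35% as higher and 0.856% as lower. The probe set passed the filter of 3 arrays only through isografts, where it is high, so its entry into the test was not independent of the groups. With no filter the limma adjusted p was 0.0658. Every allograft value was set to the floor and added no spread to the shared variance, so the SE, interval and p can be too small.

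The Il15 call was lost without any 1 of the 5 arrays of that comparison, with adjusted p from 0.0622 to 0.162. In the second run alone it was -1.26 (adjusted p = 0.289, with 1 isograft), and the first run had a difference of -1.95 between 2 arrays. Fitted with the beta-actin ratio, the difference was -1.41 (adjusted p = 0.0715). At day 7 rejecting and tolerizing allografts were each 1.75-fold lower than isografts, with adjusted p of 0.113 and 0.303. Both allograft groups and 1 of these isografts were under the floor, so this fold depends on the floor. The difference of rejecting hearts at day 7 rested on which isografts were kept. It was -0.37 (adjusted p = 0.394) without isograft 2, the highest one, and -1.21 (adjusted p = 0.0161) without isograft 1, the one under the floor. Donor strain differs in each of these comparisons and cannot be told apart from the alloimmune response.

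Il10 was not separated between the groups by either of its probe sets. Probe set 100319_at gave 2.9, 8.1 and 27.6 in rejecting allografts, 15.2, 4.1 and 5.1 in tolerizing allografts and 3.4, 17.0 and 3.6 in isografts at day 7. At day 70 it gave 7.0, 4.1 and 14 in tolerizing allografts and 5.8 and 25 in isografts. In every group exactly 1 heart was above the floor, and the difference of rejecting allografts from isografts was 0.23 (SE 0.37, adjusted p = 0.745). The control probe set gave 19.6, 16.9 and 22.7 in rejecting allografts, 17.8, 4.9 and 4.2 in tolerizing allografts and 12.8, 23.8 and 3.2 in isografts at day 7. It was above the floor in all 3 rejecting hearts, but 1 isograft was higher than all of them. With control probe sets kept in the fit, a setting added after the data were seen, its difference was 0.39 (SE 0.36, adjusted p = 0.541).

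**Figure D2:**
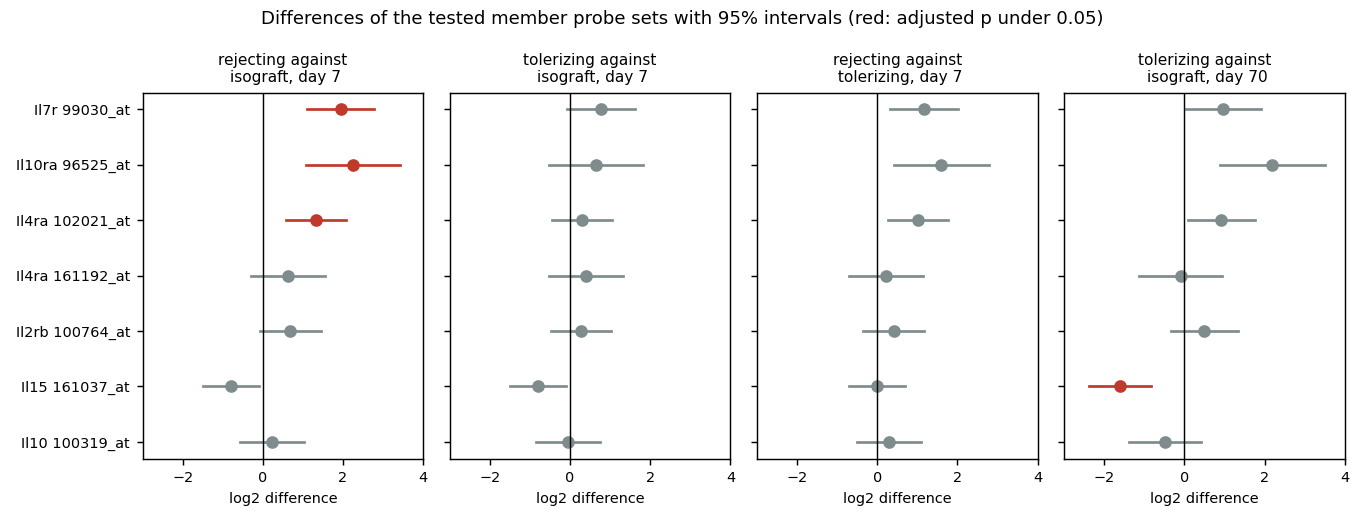
Log2 differences of the 7 tested member probe sets (points) with 95% intervals (lines) in 4 comparisons, each the first-named group minus the second; red marks an adjusted p under 0.05. Il7r, Il10ra and Il4ra 102021_at are red for rejecting against isograft hearts, and Il15 is red for tolerizing against isograft hearts at day 70.

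In the other comparisons no member was called. For tolerizing allografts against isografts at day 7 limma called 0 of 7 (1.69% of all probe sets, 0.943% higher and 0.75% lower), with 1 member, Il15, at an unadjusted p under 0.05, against 13% of all probe sets. For rejecting against tolerizing allografts it called 0 of 7 (1.41% of all probe sets, 0.529% higher and 0.885% lower). Il7r, Il10ra and Il4ra 102021_at were higher there at unadjusted p of 0.0103, 0.0115 and 0.011, and 7.32% of all probe sets were higher at an unadjusted p under 0.05. The difference of Il10ra was 1.60 (SE 0.55, adjusted p = 0.171). The first run had differences of 0.41 for Il7r and 0.27 for Il4ra 102021_at between 2 arrays, against 1.54 and 1.40 in the second run. Fitted with the beta-actin ratio, the differences were 0.96 for Il7r, 1.75 for Il10ra and 0.84 for Il4ra 102021_at, with adjusted p of 0.405, 0.284 and 0.416. With array weights, which give less influence to arrays that fit the group means less well, these 3 probe sets passed with adjusted p of 0.00522, 0.0101 and 0.00609, although the estimate of the weights stopped before it converged. Leaving out rejecting array 3, of the first run, gave a call for Il4ra 102021_at (1.34, adjusted p = 0.0331). Leaving out tolerizing array 1 of day 7 gave one for Il10ra (2.27, adjusted p = 0.0405).

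No member was called over time or in the interaction. For tolerizing allografts at day 70 against day 7 limma called 0 of 7 member probe sets (0.0385% of all), with Il10ra at an unadjusted p of 0.0451 (difference 1.21, 95% interval 0.03 to 2.39), against 6.2% of all probe sets. Il10ra was higher at day 70 in all 3 pairs of the same replicate number, and Il4ra 102021_at was lower in all 3 (difference -0.47, adjusted p = 0.963). This pairing was inferred from these same data, and no label states it. With the replicate number as a block, limma called 12 of all probe sets in place of 4 and again 0 members, with Il10ra at an adjusted p of 0.649. That block covered the arrays of all groups and not these hearts alone. For isografts at day 70 against day 7 it called 0 of 7 (0% of all), with Il4ra 102021_at and Il15 at unadjusted p of 0.0143 and 0.0451 and differences of -1.09 and 0.80, against 5.38% of all probe sets. The difference between the 2 days in the contrast of tolerizing allografts with isografts, tested as an interaction, was called for 0 of 7 (0% of all), and no member had an unadjusted p under 0.05. Its largest estimate was that of Il10ra, at 1.54 (SE 0.82).

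The rest of the pathway was read from lists of other ligands, partner chains, JAK and STAT genes, feedback inhibitors and genes of growth and survival that these receptors are known to influence. Of 43 such genes 33 were tested. In rejecting allografts against isografts 8 were higher and 2 lower, with a median difference of 0.20 over the 33, against 0.02 over all genes. In that comparison 8.54% of all probe sets were called higher and 9.18% lower, and 29.2% had an unadjusted p under 0.05. The calls among the 33 genes fell in the feedback inhibitors and the growth and survival genes, except for 1 partner chain. Of the 8 JAK and STAT genes limma called 0, with a median of 0.11. The 1 gene at an unadjusted p under 0.05 was Stat6 (1.43-fold higher, adjusted p = 0.130). Jak2 had the widest difference (1.59-fold, adjusted p = 0.179). Of the 2 other ligands tested, Il4 and Il9, limma called 0, with 0 at an unadjusted p under 0.05. Il2, Il7 and Il13 were on the array but under the floor on every heart.

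Among partner chains, Il10rb, the signalling partner of Il10ra, was lower in rejecting allografts, opposite to Il10ra. It averaged 522.3 ± 60.7 in rejecting allografts and 857.5 ± 32.9 in isografts at day 7 (SD, n = 3 each), a log2 difference of -0.72 (SE 0.17, adjusted p = 0.00895). Tolerizing allografts of day 7 averaged 563.2 ± 24.7 (SD, n = 3). Il15ra, which presents interleukin 15 to neighbouring cells, and Il13ra1 differed by -0.31 (SE 0.38, adjusted p = 0.649) and -0.02 (SE 0.23, adjusted p = 0.970).

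Of 6 feedback inhibitors, 3 were higher and 1 was lower in rejecting allografts, with a median of 1.19. Ptpn6, the phosphatase SHP-1 of leukocytes, was 6.61-fold higher (log2 2.73, SE 0.51, adjusted p = 0.00262). Socs1, which blocks JAK kinases after interferon and gamma-chain cytokines, was 4.38-fold higher (adjusted p = 0.0297), and Socs3, an inhibitor of signalling through gp130, was 3.85-fold higher (adjusted p = 0.00597). Socs2, a regulator of growth hormone signalling, averaged 61.4 ± 3.96 in rejecting allografts and 209.4 ± 41.6 in isografts at day 7 (SD, n = 3 each), 3.37-fold lower (adjusted p = 0.000707). Cish, a classical target of STAT5, differed by -0.43 (SE 0.25, adjusted p = 0.287). At day 70 Ptpn6 was 6.87-fold higher and Socs2 2.29-fold lower in tolerizing allografts than in isografts (adjusted p = 0.0158 and 0.0388).

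Of 14 tested growth and survival genes, 5 were higher and 0 lower in rejecting allografts (median 0.38). Il1rn, the interleukin 1 receptor antagonist that interleukin 10 raises in macrophages, averaged 277.4 ± 88.7 in rejecting allografts and 34.9 ± 22.3 in isografts at day 7 (SD, n = 3 each), 8.72-fold higher (adjusted p = 0.000837). Prdm1, a regulator of effector lymphocytes, was 2.84-fold higher (adjusted p = 0.00654), Myc 2.43-fold (adjusted p = 0.0381) and Gata3, the regulator of type 2 helper cells, 1.70-fold (adjusted p = 0.0442). For Prdm1, Myc and Gata3 only 1 of the 3 isografts was above the floor, so their fold changes depend on the floor. Pim1, a kinase gene induced by cytokines, was 1.84-fold higher (adjusted p = 0.0467). Bcl3 differed by 1.82 (SE 0.72, adjusted p = 0.107) and the cyclin gene Ccnd2 by -1.30 (SE 0.53, adjusted p = 0.114), and neither passed the test. The anti-apoptotic genes Bcl2, Bcl2l1 and Mcl1, known targets of gamma-chain cytokines, differed by 0.01, 0.09 and 0.33, with adjusted p of 0.994, 0.812 and 0.309. At day 70 Il1rn was 5.67-fold higher in tolerizing allografts than in isografts (adjusted p = 0.0192). For Il1rn and Ptpn6 only 1 of the 2 isografts of day 70 was above the floor, so these fold changes depend on it too.

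In all 33 tested pathway genes, limma called 0 in tolerizing allografts against isografts at day 7 (1.69% of all probe sets). At an unadjusted p under 0.05 were 7, against 13% of all probe sets. In rejecting against tolerizing allografts limma called 1, Socs2 (2.50-fold lower, adjusted p = 0.0224), against 1.41% of all probe sets. There 5 had an unadjusted p under 0.05, against 15.1% of all probe sets. At day 70 it called 3 in tolerizing allografts against isografts, 2 higher and 1 lower, against 2.35% and 0.856% of all probe sets. Over time and in the interaction it called 0 (0.0385% of all probe sets in tolerizing allografts, 0% in isografts and 0% in the interaction). At an unadjusted p under 0.05 were 3 in tolerizing allografts, 2 in isografts and 0 in the interaction, against 6.2%, 5.38% and 3.93% of all probe sets.

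Receptors of other cytokines were also among the calls. Of 21 tested, 8 were higher and 2 lower in rejecting allografts than in isografts (median 0.31), against 8.54% and 9.18% of all probe sets. The decoy receptor Il1r2 was 3.96-fold and the tumour necrosis factor receptor Tnfrsf1b 2.56-fold higher, with adjusted p of 0.00323 and 0.00138. The shared signalling chain Il6st, or gp130, was 2.49-fold lower and Ifngr2 2.52-fold lower, with adjusted p of 0.000142 and 0.00381. At day 70 the interleukin 18 receptor Il18r1, Tnfrsf1b and the macrophage growth factor receptor Csf1r were 4.53-fold, 2.09-fold and 1.93-fold higher in tolerizing allografts (adjusted p = 0.0158, 0.0356 and 0.0276), and 0 were lower. In that comparison 2.35% of all probe sets were called higher and 0.856% lower.

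**Figure D3:**
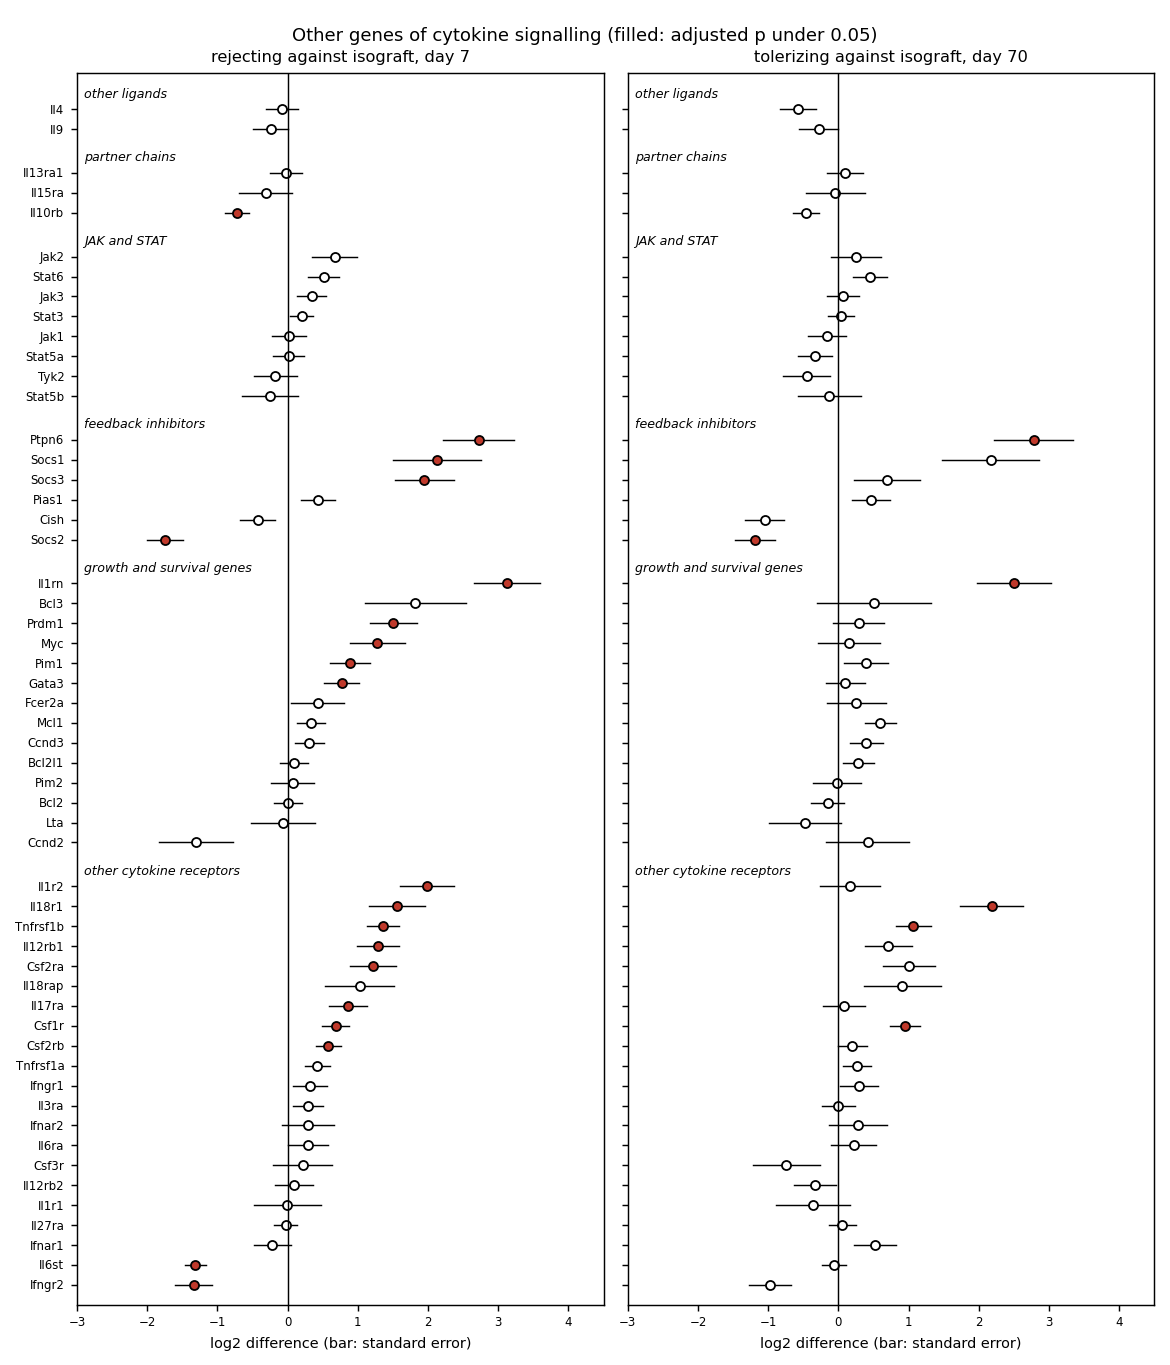
Log2 differences (points) with standard errors (bars) of 33 pathway genes in 5 lists and of 21 receptors of other cytokines, for rejecting against isograft hearts at day 7 (left) and tolerizing against isograft hearts at day 70 (right); filled points have an adjusted p under 0.05. No JAK or STAT gene is filled on the left, while Ptpn6, Socs1 and Socs3 lie well above 0 and Socs2 below.

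Summed signals of T cell, natural killer and cytotoxic, and macrophage markers were also higher in rejecting hearts than in isografts at day 7, without overlap. In whole hearts, a change in the number of cells of a type and a change in RNA per cell cannot be told apart. Of 11 tested T cell markers 8 were higher and 0 lower in rejecting allografts than in isografts at day 7 (8.54% and 9.18% of all probe sets). Their summed signal was 953.3 to 3172.1 for rejecting hearts and 619.3 to 1278.5 for tolerizing hearts, against 147.9 to 559.9 for isografts at day 7. At day 70 it was 591.5 to 1405.7 in tolerizing allografts, against 176.8 to 216.5 in isografts. Cd8a, the coreceptor of cytotoxic T cells, was 15.6-fold and Cd4 2.09-fold higher in rejecting allografts (adjusted p = 0.000663 and 0.0145). Cd3e differed by 2.17 (SE 0.85, adjusted p = 0.0993). Among the rejecting hearts the T cell sums were 953.3, 1536.7 and 3172.1 for arrays 1, 2 and 3. Array 3, with the highest T cell sum, had the lowest Il7r and Il4ra 102021_at signals of the group. It also had the highest Il2rb signal (67.2), and its Il10ra signal (72.7) lay between those of the other arrays. Its cardiomyocyte sum was the highest of the group too (18691.9). Array 3 was the only rejecting array of the first run, so its ranks cannot be told apart from the run.

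Cd8a was above the floor on 1 of 3 isografts at day 7 and 0 of 2 at day 70, so its fold change depends on the floor.

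Natural killer and cytotoxic markers had 5 of 5 tested genes higher in rejecting allografts. Ncr1, also on this list and on the array, was under the floor on every heart and was not tested. Their sums were 402.8 to 2876.1 for rejecting hearts and 298.2 to 432.5 for tolerizing hearts of day 7, against 108.4 to 148.1 for isografts. Macrophage markers had 6 of 8 higher and 1, Mrc1, lower, with sums of 5287.2 to 6208.6 for rejecting hearts and 3152.1 to 5081.6 for tolerizing hearts, against 2255.4 to 2993.9 for isografts. Neutrophil markers had 2 of 5 higher, with sums of 720.0 to 2906.2 for rejecting hearts and 297.9 to 711.2 for tolerizing hearts, against 192.6 to 482.8 for isografts. B cell markers had 1 of 6 higher, Cd72, while Cd79a differed by 0.29 (SE 0.38, adjusted p = 0.676). Their sums were 465.2 to 793.1 for rejecting hearts and 322.8 to 614.2 for tolerizing hearts, against 245.8 to 315.0 for isografts. Cardiomyocyte markers had 8 of 8 lower, with sums of 3579.7 to 18691.9 for rejecting hearts and 19445.1 to 29015.0 for tolerizing hearts, against 30056.4 to 44740.6 for isografts. Endothelial markers had 4 of 6 and fibroblast markers 2 of 6 lower, with 0 higher.

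In tolerizing allografts against isografts at day 7, 2 of 11 T cell markers were higher and no marker of another list was called. Over all probe sets 0.943% were higher and 0.75% lower there. At day 70, 2 of 11 T cell, 1 of 6 B cell and 2 of 8 macrophage markers were higher, and 0 markers were lower. Over all probe sets 2.35% were higher and 0.856% lower at day 70. Macrophage sums at day 70 were 3277.3 to 4675.7 in tolerizing allografts, against 922.3 to 2061.3 in isografts. Cardiomyocyte sums at day 70 were 26763.1 to 38259.1 in tolerizing allografts, against 35719.5 to 44360.0 in isografts, and these overlapped. The part of these cell types in the differences of Il7r, Il10ra, Il4ra and Il15 was not tested.

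**Figure D4:**
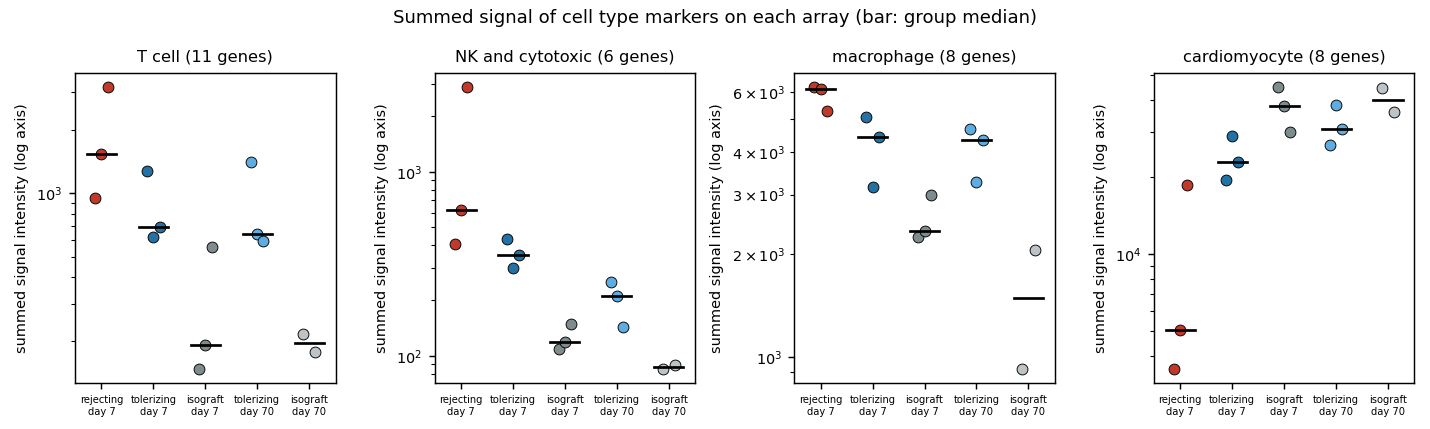
Summed signal intensity (log axis) of the T cell, natural killer and cytotoxic, macrophage and cardiomyocyte marker lists on each array, by group; bars are group medians. The rejecting allografts lie highest for macrophage markers and lowest for cardiomyocyte markers, without overlap with the isografts.

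By likeness of log2 signal over the 14 arrays, the genes closest to Il7r were Ptk2b, Il1rn and Guca1a (Pearson r of 0.967, 0.930 and 0.925). Closest to Il10ra were B4galnt1, Lcp2 and Pld4 (0.928, 0.928 and 0.924), and closest to Il4ra were Ctsb, Actg1 and Arhgap1 (0.940, 0.940 and 0.939). Closest to Il15 were Nmb, Inmt and Ccl11 (0.926, 0.925 and 0.923), to Il2rb Cd27, Galnt3 and Drg1 (0.889, 0.865 and 0.820), and to Il10 Rac1, Asf1a and Cox16 (0.823, 0.821 and 0.799). These values describe the order of likeness only, since the arrays share their groups and runs. Il10 and Il15 were above the floor on only 5 and 4 of the 14 arrays, so their values rest on few arrays.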

How the data were processed

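Deposited values were the signal intensity of 12488 probe sets on 14 arrays, on a linear scale. The sources used here do not give the software or scaling of the authors. Equal trimmed means, taken without the lowest and highest 2% of each array, show that the deposited intensity was scaled. Groups, days and replicate numbers came from the labels. Nothing there says that replicate hearts came from separate operations, so p-values measure the spread between these arrays, and their number limits the precision. A group wholly at the floor adds no spread to the shared variance, so SE and p can be too small for such a probe set.

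Signals were set to a floor of 11 and log2 was taken. Probe sets over the floor on 3 or more arrays, less the 66 controls, numbered 10395 and were tested in limma 3.58.1 (R 4.3.3; lmFit, contrasts, eBayes with intensity trend) with all 5 groups in 1 fit. The fit had 4.45 prior and 9 residual degrees of freedom. P-values were two-sided and adjusted by Benjamini-Hochberg within each comparison, and the threshold was 0.05. The fit was tested on simulated data. Replicate numbers were taken to pair tolerizing hearts of days 70 and 7, from the data and not the labels, since deviations from the group means correlated at 0.34, 0.253 and 0.268 in their same-numbered pairs. No other compared groups met this. For other genes the brightest probe set with 1 annotated gene was used. Symbols were updated through RefSeq gene IDs (GRCm38.p6). "At least" marks a fold between a group wholly at the floor and a group wholly above it.

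Members, lists and alternatives were chosen with earlier results of these data known. Named were all members. Of each list, the called genes with the 4 smallest p and fixed markers could be named, and not all of them are. Cish, Il15ra, Il13ra1, Il4, Il9, Bcl2, Bcl2l1, Mcl1, Pim1, Bcl3, Ccnd2, Jak2, Stat6 and the untested ligands were named after their values were seen. Alternatives were quantile normalization, other floors and filters, no trend, array weights, replicate or accession run as a block, the second run alone, the beta-actin ratio, fits of the compared groups only and each array left out.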

Additional observations from a re-analysis of the deposited data

How the results depend on the processing

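Of the 4 member calls, that of Il7r in rejecting allografts against isografts held under each of the 19 alternatives tried. Il10ra lost its call with the beta-actin ratio, in the second accession run alone and with the floor at the 50th percentile (log2 0.68, adjusted p = 0.132). Member calls there numbered 2 or 3 under all alternatives, leaving out 1 array included. For rejecting against tolerizing allografts the number of member calls was 0, but 3 with array weights and 1 in the second accession run alone, and 0 to 1 on leaving out 1 array. For tolerizing allografts against isografts at day 70 it was 1, but 0 with the floor at the 50th percentile and the filter at 7 arrays, which both leave Il15 untested, and 0 with no filter, with the beta-actin ratio and in the fit of the compared groups only. On leaving out 1 array it was 0 to 1; the 1 call without isograft 2, and in the second run alone, was Il4ra 102021_at (log2 1.61 and 1.79, adjusted p = 0.0494 and 0.0277), not Il15. Other comparisons kept 0 member calls throughout.

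Over all 26 pairs of same-numbered arrays, deviations from the group means correlated from -0.176 to 0.34, so the numbers do not pair the groups in general; the exception is tolerizing hearts of both days. With the replicate block the member calls were 3 for rejecting allografts against isografts and 1 for tolerizing allografts at day 70, and 0 in the other comparisons, as without it.

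Counts over all probe sets moved more. Against 1842, rejecting allografts against isografts gave 2948 with array weights and 1153 with the compared groups only. Tolerizing allografts against isografts at day 7 gave 8 to 364 against 176. Rejecting against tolerizing allografts gave 20 to 1512 against 147, and the comparison at day 70 gave 37 to 405 against 333. Tolerizing allografts over time gave 0 to 46 against 4. Isografts over time and the interaction, at 0, gave up to 32 and 3. Signals near the floor limit Il2ra, Il10, Il15 and, in isografts, Il10ra, Gata3, Myc and Prdm1.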
